A study of Homo sapiens with 6 samples.

Results

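The genes described here are 56 components of the lysosome and its acidifying pump, out of 62696 genes counted in 12Z, an established line of epithelial cells from human endometriosis. They comprise 3 TFEB-family transcription factors, 8 membrane proteins and cholesterol exporters, 12 proteases, 10 glycosidases, 5 sulfatases, 5 lipid hydrolases and cofactors, 8 subunits of the cytosolic V1 sector of the vacuolar ATPase, and 5 subunits or accessory proteins of its membrane V0 sector. They were chosen by function and matched by symbol, and the list was drawn up with the results of the comparison reported here in view. Their counts and fold changes are therefore given as a description, not as a test of the lysosome as a whole.

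Cells received either a control siRNA (Ambion, 3 libraries) or 1 siRNA against the long non-coding RNA LINC01638 (LINC01638_2, 3 libraries) with Lipofectamine RNAiMAX, and total RNA was taken at 72 h. The 12Z line is the only cell line used, all libraries were transfected, and the labels letter the replicates A, B and C without saying whether they were separate cultures. Libraries were depleted of ribosomal RNA and kept strand information. Each held 45617234 to 58148664 counts on the gene strand. LINC01638 itself was counted at 407, 334 and 414 in the control libraries and at 125, 103 and 123 with its siRNA (log2 fold change -1.87 ± 0.11 SE). Reads outside annotated exons made up 8.32% to 10.1% of mapped reads with control siRNA and 12.1% to 15.1% with LINC01638 siRNA, and the part of this difference in the fold changes was not tested. Epithelial keratin genes were abundant in all libraries (summed level of the 7 epithelial markers 5175 to 5621 CPM with control siRNA and 3181 to 3711 CPM with LINC01638 siRNA). All 7 were called, 6 lower and EPCAM higher, with a median log2 fold change of -0.52, and the part of this in the lysosome values was not tested. The sum hides unequal levels. EPCAM was the lowest of the 7 in the controls, with a mean of 0.377 CPM, and rose by 1.86 on the log2 scale. Of 10 macrophage and leukocyte markers, 7 were too low to test and CD14 held nearly the whole sum, which was 46.6 to 53.6 CPM in controls and 35.03 to 36.1 CPM with LINC01638 siRNA. Of the 3 tested, 1 was called higher and 1 lower, and their log2 fold changes ran from -0.50 to 1.58. PTPRC, which defines leukocytes, stood at 0.319 ± 0.131 CPM and 0.239 ± 0.0804 CPM (SD, n = 3 each). Among the 5 endothelial markers, PECAM1 was too low to test, CDH5 and VWF were called higher and KDR and TIE1 lower, and the summed level was 23.8 to 30.5 CPM against 13.1 to 16.2 CPM.

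Lysosomes degrade proteins, glycans, lipids and nucleic acids with hydrolases that work at acid pH. The vacuolar ATPase makes the lumen acid: its V1 sector hydrolyses ATP in the cytosol and drives rotation of a ring in the membrane V0 sector, which carries protons inward. TFEB, TFE3 and MITF are related transcription factors that bind E-box words in the promoters of many of these genes. They are controlled largely by phosphorylation at the lysosome surface, which holds them in the cytoplasm, so their RNA level does not show their activity.

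More of the 56 lysosome genes rose than fell with LINC01638 siRNA, and 12 of the 13 proton pump genes listed among them rose. Pump genes outside the 56 are described further on. Levels are in CPM, a gene's counts scaled to the library's total after edgeR's TMM adjustment of that total. Log2 fold changes are LINC01638 siRNA over control siRNA with their standard error, and a gene rose or fell where edgeR's quasi-likelihood test, adjusted over all genes tested, gave less than 0.05. All 56 genes were high enough to test. Of them 35 (62.5%) rose, 7 (12.5%) fell and 14 did not pass, while among all 18569 genes tested 56% were called, 26.3% higher and 29.6% lower. The groups did not overlap for 41 of the 56, against 61.5% of all genes tested. All 56 are protein-coding. Of the 13586 protein-coding genes tested, 64.9% were called, 28.6% higher and 36.3% lower, and the groups did not overlap for 9465. The median log2 fold change was 0.26 for the 56 genes, -0.00142 for all genes tested and -0.0411 for the protein-coding genes tested. With library totals alone in place of TMM, the median of all genes moved up by 0.10 and all genes split into 6349 higher and 4288 lower, instead of 4887 higher and 5503 lower.

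Fold changes were mostly under 1.5. The change reached 1.5-fold upward in 10 genes and downward in 2, and it passed 2-fold in ATP6V1D, ATP6V0C and NEU1. Of all 18569 genes tested, called or not, 2586 reached 1.5-fold upward and 2500 downward, and 1042 reached 2-fold upward and 810 downward. For the 13586 protein-coding genes these counts were 1368, 1867, 531 and 586. The 13 ATPase genes had a median of 0.53, and the 32 hydrolases and cofactors rose in 15 cases and fell in 5 with a median of 0.15. The share of these 32 called was 62.5%, against 56% of all genes and 64.9% of protein-coding genes tested. A change in RNA per cell and a change in the make-up of the culture cannot be told apart in bulk RNA.

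**Figure D1:**
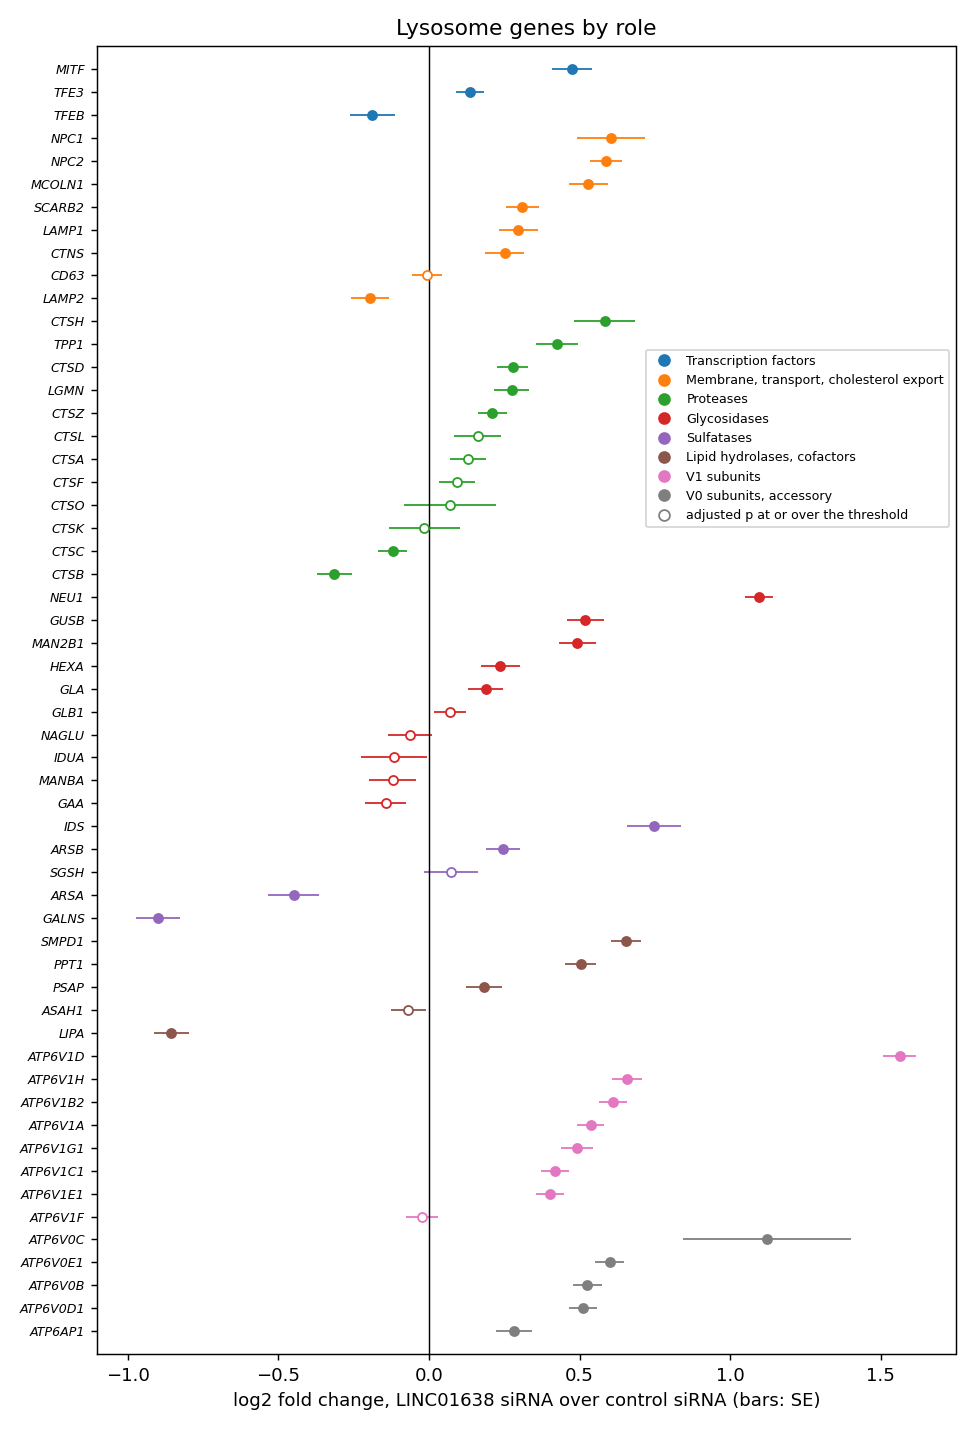
Log2 fold change of each of the 56 genes with LINC01638 siRNA over control siRNA (horizontal axis), grouped and coloured by role, with bars showing 1 SE and open circles marking genes that did not pass the test. The ATPase genes other than ATP6V1F lie right of 0, while GALNS and LIPA lie farthest left.

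Promoters were searched for the E-box word CACGTG and for the longer word TCACGTGA, which contains it and is the core of the element known as CLEAR. Each word is its own reverse complement, so 1 search covers both strands. RefSeq windows from 250 bases before to 50 bases after an annotated start (GRCh38.p14) matched 39 of the 56 genes by symbol, in 58 windows. CACGTG stood in 13 of the 58 windows (22.4%), against 8.34% of all windows of protein-coding genes in the same table. TCACGTGA stood in 7 windows (12.1%), against 1.27%. In the same windows of the other lysosome genes described further on, the shares were 19.9% and 9.39% of 181 windows. The stretches below show the word in capitals with 12 bases on each side, 5′ to 3′ on the strand of the gene, for genes that rose, that fell and that did not pass.

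The LAMP1 stretch lies on the plus strand at chr13:113297199-113297228 (GRCh38.p14), its word 28 bases before the start. Its window held CACGTG 6 times, the most of the 58, and TCACGTGA 2 times. MCOLN1 (chr19:7522571-7522600, plus strand, 41 bases before the start), ATP6V0D1 (chr16:67481199-67481228, minus strand, 59 bases) and ATP6V1G1 (chr9:114587699-114587728, plus strand, 58 bases) also rose and held TCACGTGA. NEU1 (chr6:31862930-31862959, minus strand, 126 bases) held CACGTG without the longer word. GALNS (chr16:88857104-88857133, minus strand, 174 bases) fell. GAA (chr17:80101493-80101522, plus strand, 76 bases) and CTSA (chr20:45891298-45891327, plus strand, 25 bases) did not pass the test.
LAMP1: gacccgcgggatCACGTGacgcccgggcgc
MCOLN1: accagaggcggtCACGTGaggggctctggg
ATP6V0D1: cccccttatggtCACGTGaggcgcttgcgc
ATP6V1G1: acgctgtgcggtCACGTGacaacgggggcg
NEU1: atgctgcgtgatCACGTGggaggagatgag
GALNS: caggcaccgcgtCACGTGacccgccgctgg
GAA: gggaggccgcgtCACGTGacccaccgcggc
CTSA: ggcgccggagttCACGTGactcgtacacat

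Genes with and without the word both included some that rose, some that fell and some that did not pass. Of the 13 genes with CACGTG, 8 rose, 1 fell and 4 did not pass (median log2 fold change 0.28), and of the 26 without it 19 rose, 3 fell and 4 did not pass (median 0.36). With TCACGTGA the count was 4 of 7 higher and 1 lower (median 0.30), and without it 23 of 32 higher and 3 lower (median 0.30). ATP6V1D, which rose the most, has 1 window in the table and neither word in it. A match is a stretch of letters, not evidence that a factor binds there.

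Of the TFEB-family factors, TFE3 and MITF rose and TFEB fell. TFE3 was the most abundant of them per kilobase of exon, and it stood at 116, 118 and 112 CPM in control libraries A, B and C and at 126, 126 and 128 CPM with LINC01638 siRNA. That was a rise of 1.10-fold (log2 0.14 ± 0.0458). MITF read 16.5, 16.2 and 16.8 CPM in controls and 24.04, 23.04 and 21.8 CPM with LINC01638 siRNA, a 1.39-fold rise (log2 0.47 ± 0.0665). TFEB went from 16.2, 16.2 and 15.2 CPM to 14.3, 12.8 and 14.5 CPM and fell by 0.19 ± 0.0746 on the log2 scale. The groups did not overlap for any of the 3, but the call for TFEB was lost in 10 of 15 other settings of the analysis and that for TFE3 in 4.

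Of the 8 membrane and cholesterol export genes, 6 rose, 1 fell and 1 did not pass (median 0.30). The share called was 87.5%, against 56% of all genes and 64.9% of protein-coding genes tested. NPC1, the membrane protein that exports cholesterol from the lysosome, rose the most. It read 63.95, 79.7 and 81.9 CPM in the controls and 125, 99.6 and 118 CPM with LINC01638 siRNA, and every treated library lay above every control (log2 0.60 ± 0.11). NPC2, the soluble protein that hands cholesterol to NPC1, went from 36.1 ± 0.743 to 54.2 ± 1.34 CPM (log2 0.59 ± 0.0523). RNA of both genes of cholesterol export thus rose, by 1.52-fold and 1.503-fold. MCOLN1, a lysosomal calcium channel, rose 1.44-fold from 20.3 ± 1.01 CPM. SCARB2, the receptor that carries glucocerebrosidase to lysosomes, rose 1.24-fold, and CTNS, the cystine exporter, 1.19-fold.

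Among the listed membrane genes, LAMP1, CD63 and LAMP2 were the most abundant per kilobase of exon, and they did not move together. LAMP1 read 556, 676 and 638 CPM in the controls and 794, 739 and 764 CPM with LINC01638 siRNA, a rise of 1.23-fold (log2 0.30 ± 0.0641). LAMP2, its relative, read 146, 166 and 182 CPM and 141, 144 and 146 CPM and fell by 0.20 ± 0.0626. It was the 1 called gene of the 56 whose groups overlapped, since control A lay at the level of the treated libraries, and its call was lost in 3 of 15 settings. CD63, a tetraspanin of late endosomes and lysosomes, stood at 235 ± 10.2 CPM and 234 ± 5.39 CPM and did not pass.

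Of the 12 proteases, 5 rose, 2 fell and 5 did not pass (58.3% called, against 56% of all genes tested, median 0.15). CTSB, a cysteine cathepsin and the most abundant protease per kilobase, fell. Its level was 514, 601 and 574 CPM in the controls and 448, 467 and 443 CPM with LINC01638 siRNA, so every treated library lay below every control (log2 -0.31 ± 0.0585). CTSC, which activates serine proteases of immune cells, fell by 0.12 ± 0.0478, a call lost in 11 of 15 settings. CTSH, an aminopeptidase, showed the largest rise of the group at a low level. It went from 4.07, 4.05 and 4.62 CPM to 6.45, 6.29 and 6.37 CPM without overlap (log2 0.58 ± 0.10). Counted without regard to strand, its log2 fold change was 0.29, and 39.2% of reads over CTSH lay on the opposite strand in the controls.

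TPP1, a tripeptidyl peptidase, rose 1.34-fold from 76.3 ± 8.75 CPM, and CTSD, the main aspartic protease of lysosomes, 1.21-fold from 95.95 ± 6.38 CPM. The asparaginyl endopeptidase LGMN rose 1.21-fold and the carboxypeptidase CTSZ 1.16-fold. The log2 fold changes of CTSA, CTSF, CTSK, CTSL and CTSO ran from -0.02 to 0.16 and did not pass. CTSL did pass as higher in 7 of 15 other settings, CTSA in 5 and CTSF in 1.

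The glycosidases split between genes that rose and genes that did not pass. Of 10, 5 rose and none fell (50% called, against 56% of all genes tested, median 0.13). NEU1, the lysosomal sialidase, read 65.5, 70.9 and 67.95 CPM in the controls and 145, 146 and 146 CPM with LINC01638 siRNA. It rose 2.14-fold (log2 1.10 ± 0.0477), and the SD over the treated libraries was 0.480 CPM. GUSB, beta-glucuronidase, rose 1.43-fold to 74.5 ± 4.29 CPM, and the alpha-mannosidase MAN2B1 1.41-fold to 47.1 ± 1.05 CPM. HEXA and GLA, enzymes of ganglioside and globoside breakdown, rose 1.18-fold and 1.14-fold. GLB1, the beta-galactosidase that forms a complex with NEU1 and CTSA, had the highest mean per kilobase among glycosidases in the controls, 14.7 ± 0.785 CPM, but GLA and NEU1 lay within its SD and NEU1, GUSB and GLA were above it with LINC01638 siRNA. It read 60.9, 67.8 and 64.3 CPM and 70.5, 65.3 and 66.5 CPM, so the groups overlapped and the test was not passed (log2 0.07 ± 0.0533). CTSA, the protease of that complex, had a log2 fold change of 0.13 ± 0.0599 and did not pass here, while GLB1 passed as higher in 1 of the 15 other settings. GAA, IDUA, MANBA and NAGLU had log2 fold changes from -0.14 to -0.06 and did not pass, though GAA passed as lower in 2 of 15 other settings.

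Sulfatases were the role group with the lowest median, 0.07. GALNS, which removes sulfate from keratan and chondroitin sulfate, read 35.8, 44.2 and 43.6 CPM in the controls and 21.9, 21.7 and 22.5 CPM with LINC01638 siRNA. Its log2 fold change of -0.90 ± 0.0725 was the lowest of the 56 genes. ARSA, the sulfatase of sulfatide, fell by 0.45 ± 0.0847 on the log2 scale, from 16.7 ± 1.56 to 12.2 ± 1.02 CPM. IDS, iduronate sulfatase, moved the other way, from 6.77, 6.14 and 5.71 CPM to 10.4, 10.6 and 10.4 CPM (log2 0.75 ± 0.0901). A pseudogene resembles IDS, and 79.98% of 50-base windows of its annotated exons occurred in no other gene. ARSB rose 1.18-fold. SGSH, the most abundant sulfatase per kilobase, read 37.4, 51.2 and 44.3 CPM and 48.4, 45.5 and 45.9 CPM and did not pass, except as higher in 1 of 15 other settings.

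The lipid enzymes held both a large rise and a large fall. SMPD1, acid sphingomyelinase, read 57.4, 63.7 and 58.3 CPM in the controls and 93.5, 92.8 and 95.7 CPM with LINC01638 siRNA, a rise of 1.57-fold (log2 0.65 ± 0.0512). LIPA, the acid lipase that frees cholesterol from its esters, read 72.2, 76.2 and 82.5 CPM and 39.98, 44.3 and 43.2 CPM. Its highest treated library stood below its lowest control, and the log2 fold change was -0.86 ± 0.0584. LIPA thus fell while NPC1 and NPC2, which export the cholesterol it frees, rose. PPT1, a thioesterase that removes palmitate from proteins, rose 1.42-fold from 161 ± 9.99 CPM. PSAP, the precursor of the saposin cofactors, was the most abundant of all 56 genes. It read 1121, 1291 and 1233 CPM and 1379, 1342 and 1415 CPM (log2 0.18 ± 0.0602), with no overlap, and its call was lost in 2 of 15 settings. ASAH1, acid ceramidase, did not pass (log2 -0.07 ± 0.0569).

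**Figure D2:**
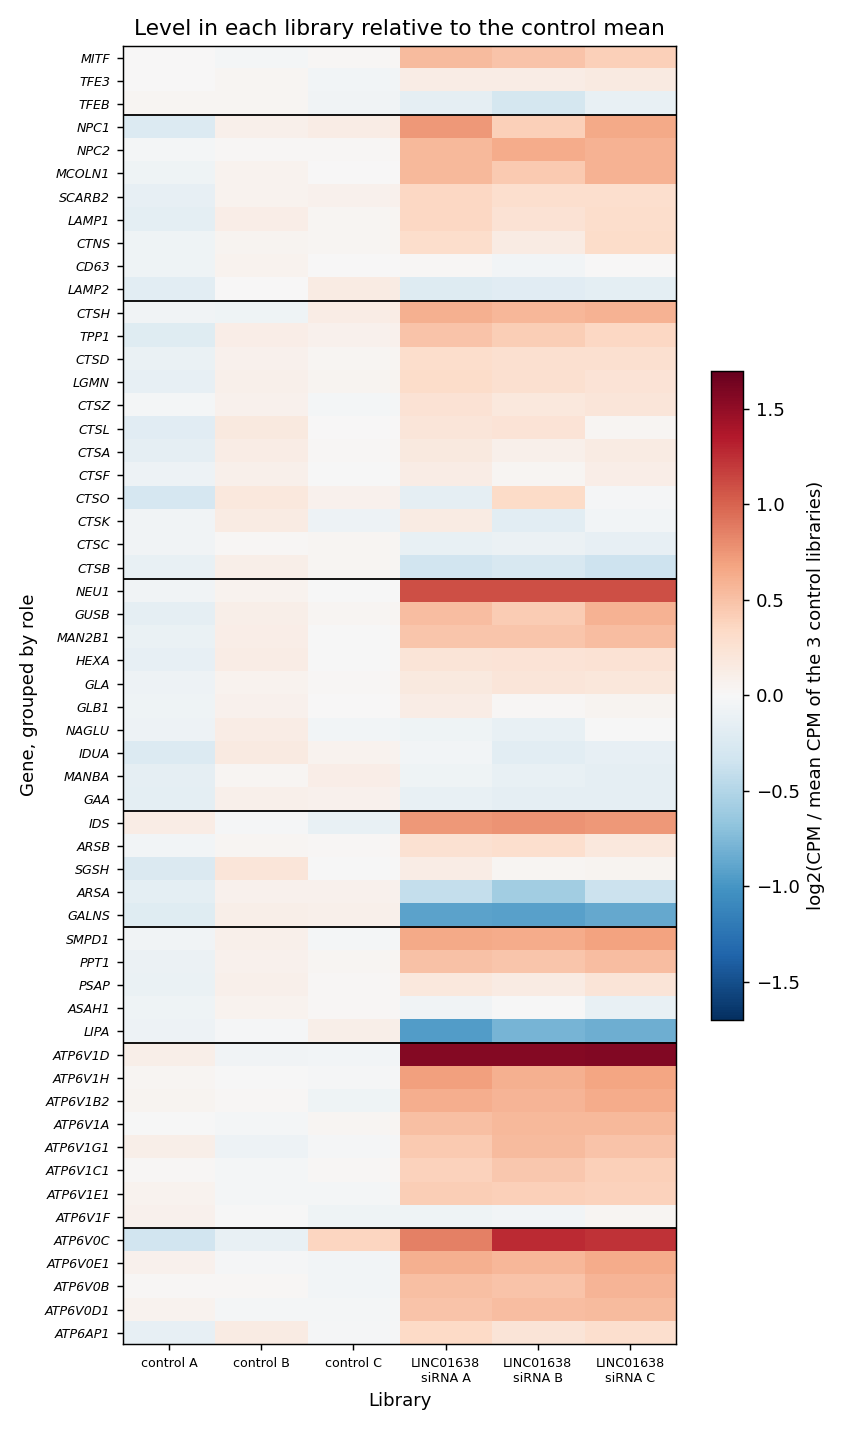
Level of each gene (vertical axis, grouped by role) in each of the 6 libraries (horizontal axis), coloured by log2 of its CPM over the mean CPM of the 3 control libraries. Control A is pale blue for most hydrolases and membrane proteins but, among the ATPase genes, is the lowest control for ATP6AP1 and ATP6V0C alone, and ATP6V1D is dark red in all treated libraries.

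The 3 control libraries were not alike for the enzymes. Control A was the lowest control for 36 of the 40 hydrolases, cofactors and membrane genes (90%), and for 35.8% of all genes tested. In that library their median stood at -0.11 on the log2 scale relative to the control mean, against 0.08 in control B and 0.03 in control C. For the ATPase genes control A was the lowest in 2 of 13. Without control A, 35 of the 56 genes rose, 7 fell, and the median was 0.22.

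RNA rose for nearly all listed parts of the vacuolar ATPase. Of 8 V1 subunits 7 rose and none fell (median 0.51). The share called was 87.5%, against 56% of all genes and 64.9% of protein-coding genes tested. ATP6V1D, subunit D of the central rotor stalk, had the largest rise of the 56 genes. It is annotated at chr14:67294371-67360265 on the minus strand (GRCh38). It read 31.3, 27.96 and 28.1 CPM in the controls and 85.9, 85.7 and 86.9 CPM with LINC01638 siRNA, a 2.96-fold rise (log2 1.56 ± 0.0551). The SD over the treated libraries was 0.649 CPM, and all of them lay far above the highest control.

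The catalytic subunit ATP6V1A rose from 109 ± 2.65 to 159 ± 2.99 CPM (log2 0.54 ± 0.0460), and its partner in the ATP-hydrolysing ring, ATP6V1B2, from 106 ± 4.27 to 162 ± 2.96 CPM (log2 0.61 ± 0.0476). The regulatory subunit ATP6V1H rose 1.58-fold. Subunits of the outer stalks, ATP6V1G1, ATP6V1C1 and ATP6V1E1, rose 1.40-fold, 1.34-fold and 1.32-fold. ATP6V1F, which pairs with subunit D in the rotor stalk, was the exception. It was the most abundant ATPase gene per kilobase and read 83.9, 79.3 and 75.3 CPM in the controls and 75.8, 77.01 and 81.7 CPM with LINC01638 siRNA. The groups overlapped and the log2 fold change was -0.02 ± 0.0524.

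All 5 V0 and accessory genes rose (median 0.53), while 56% of all genes and 64.9% of protein-coding genes tested were called in either direction. ATP6V0E1, the most abundant of them per kilobase, read 107, 100.4 and 98.9 CPM in the controls and 155, 151 and 158 CPM with LINC01638 siRNA (log2 0.60 ± 0.0480). ATP6V0B, a subunit of the proton-carrying ring, rose 1.44-fold and ATP6V0D1, which couples the ring to the rotor stalk, 1.43-fold. ATP6AP1, an assembly and accessory protein, rose 1.22-fold.

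ATP6V0C, which encodes the main subunit of the proton ring, was counted far below the other ATPase genes. It had 18, 17 and 29 counts in the controls and 42, 53 and 60 with LINC01638 siRNA, or 0.338, 0.389 and 0.547 CPM and 0.770, 1.02 and 0.998 CPM (log2 1.12 ± 0.28). Of its 50-base exon windows 34.3% occurred in no other annotated gene, and reads that overlap several genes are left out of these counts. Its value therefore covers a part of the gene, and its level cannot be set beside those of the other subunits.

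**Figure D3:**
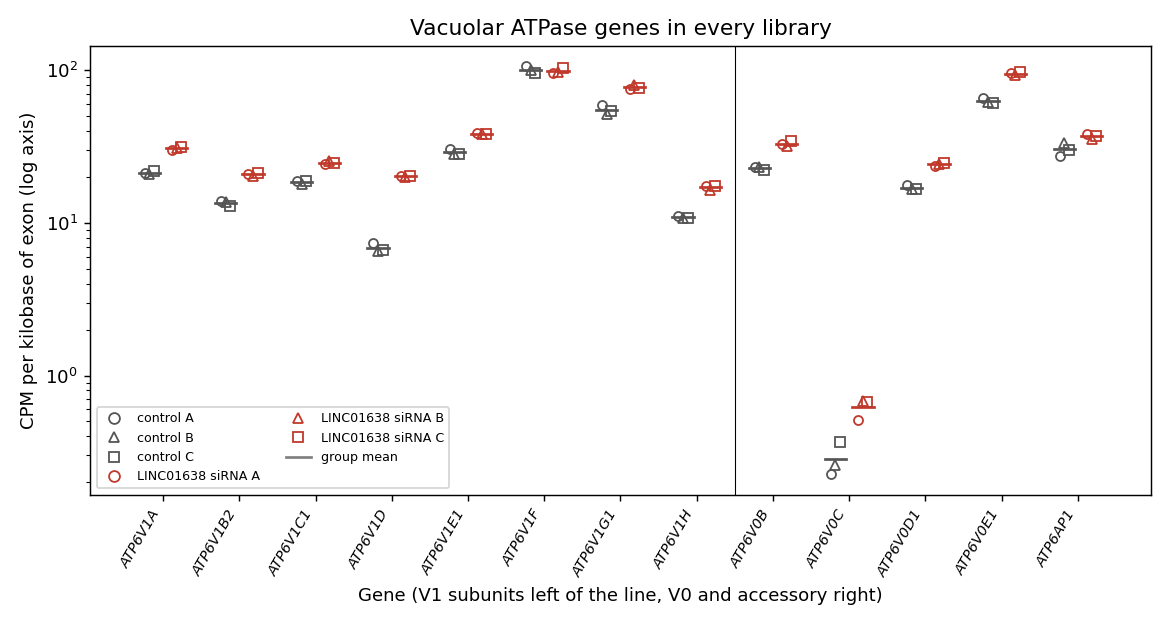
Level per kilobase of exon (log axis) of the 13 ATPase genes in each library, with V1 subunits left of the vertical line, V0 and accessory genes right of it, and short lines marking the mean of 3 libraries. Treated and control libraries overlap for ATP6V1F alone, and ATP6V0C lies far below the rest.

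Per kilobase of annotated exon, levels spanned a wide range and kept most of their order. In the controls PSAP led with 375 ± 26.7 CPM per kilobase, followed by LAMP1 with 109 ± 10.6, ATP6V1F with 101 ± 5.44, CD63 with 89.4 ± 3.89 and CTSB with 75.8 ± 6.03 (SD, n = 3). LAMP1 and ATP6V1F differed by less than the SD of LAMP1. Apart from ATP6V0C, the lowest were IDS with 0.668 ± 0.0575 and CTSH with 0.721 ± 0.0546, which differed by less than the SD of either. Largest among the shifts in order, ATP6V1D moved from place 37 to 24, NEU1 from 26 to 17 and LIPA from 22 to 37. Summed over the 13 ATPase genes, the level per kilobase was 390 ± 12.0 CPM in the controls and 519 ± 7.25 CPM with LINC01638 siRNA. Summed over the 5 sulfatases it was 21.5 ± 2.12 CPM and 19.1 ± 0.445 CPM, and the libraries of these groups overlapped.

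Some of the 56 genes share sequence or position with others. In 49 of them at least 95% of 50-base exon windows occurred in no other annotated gene. Besides ATP6V0C and IDS, the share was 63.5% for CTSD, 81.6% for MAN2B1, 89.3% for NAGLU, 90.6% for TPP1 and 91.2% for MANBA, so the counts of these genes are less certain. Opposite-strand reads exceeded 30% of the reads over the gene in the controls for CTNS (59.3%), CTSZ (57.5%) and CTSH, and they are not in the counts used here.

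The neighbouring parts of the pathway were read from 6 lists of 161 further genes, of which 152 were tested. Of these 67 rose, 41 fell and 44 did not pass, with a median log2 fold change of 0.09. The share called was 71.1%, against 56% of all genes and 64.9% of protein-coding genes tested. The 33 other hydrolases and cofactors tested rose in 13 cases and fell in 8 (63.6% called, median 0.12). CREG1, a lysosomal glycoprotein, rose 3.06-fold from 11.8, 12.4 and 10.4 CPM to 34.6, 35.3 and 35.7 CPM (edgeR adjusted p = 7.85e-13). HGSNAT, the acetyltransferase of heparan sulfate breakdown, fell from 48.96 ± 2.46 to 25.5 ± 1.47 CPM, and the peptidase DPP7 rose 1.41-fold (edgeR adjusted p = 1.24e-10 and 1.63e-07).

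Genes of other lysosomal membrane proteins leaned upward, with 16 of 28 higher and 5 lower (median 0.21). The share called was 75%, against 56% of all genes and 64.9% of protein-coding genes tested. LAPTM4A, a membrane protein of late endosomes and lysosomes, stood at 352 ± 14.4 and 342 ± 3.48 CPM and did not pass (edgeR adjusted p = 0.495). CD164, a sialomucin, rose 1.54-fold and MFSD1, a transporter, 1.83-fold (edgeR adjusted p = 6.72e-09 and 5.68e-11). MFSD12, a cysteine transporter, fell by 0.39 ± 0.0512 on the log2 scale (edgeR adjusted p = 1.85e-06).

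The 18 further ATPase subunits and assembly factors tested included 8 that rose and 2 that fell, with a median of 0.12. The share called was 55.6%, near the 56% of all genes tested. ATP6AP2, an accessory protein, rose 1.19-fold (edgeR adjusted p = 3.20e-04), and NCOA7, a regulator of the pump, did not pass (edgeR adjusted p = 0.205). ATP6V0A4, a V0 isoform known from kidney, rose from 0.525, 0.389 and 0.339 CPM to 1.58, 1.14 and 1.40 CPM, a low level in every library (edgeR adjusted p = 8.34e-06). V0 genes at higher levels included ATP6V0A1, which rose 1.19-fold, and TCIRG1, ATP6V0A2 and ATP6V0E2, which did not pass. TCIRG1 stood at 85.1 ± 7.46 CPM in the controls and 85.0 ± 5.16 CPM with LINC01638 siRNA. ATP6V0A2 stood at 26.1 ± 1.66 and 25.3 ± 0.573 CPM, and ATP6V0E2 at 33.5 ± 0.615 and 32.0 ± 0.318 CPM. VMA12, an assembly factor, rose 1.30-fold and ROGDI, linked to assembly of the pump, fell by 0.92 ± 0.10 on the log2 scale (edgeR adjusted p = 2.94e-04 and 1.28e-07).

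Of 22 genes for delivery of hydrolases 10 rose and 6 fell (median -0.03). The share called was 72.7%, against 56% of all genes and 64.9% of protein-coding genes tested. IGF2R, a mannose 6-phosphate receptor, read 475, 643 and 583 CPM in the controls and 989, 789.5 and 827 CPM with LINC01638 siRNA, without overlap (edgeR adjusted p = 0.00332). M6PR, also a mannose 6-phosphate receptor, rose 1.27-fold from 121 ± 7.52 CPM (edgeR adjusted p = 1.17e-05). The retromer subunit VPS26A rose 1.86-fold and CLN8, an exporter of hydrolases from the endoplasmic reticulum, 1.73-fold, while the adaptor subunit AP1M1 fell by 0.48 ± 0.0467 (edgeR adjusted p = 8.20e-10, 1.64e-08 and 3.46e-08).

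Among 25 genes of nutrient sensing and TFEB control 12 rose and 7 fell (median 0.09). The share called was 76%, against 56% of all genes and 64.9% of protein-coding genes tested. FLCN, part of a complex that promotes retention of TFEB in the cytoplasm, read 31.7, 31.1 and 29.5 CPM in the controls and 63.2, 62.3 and 66.3 CPM with LINC01638 siRNA (edgeR adjusted p = 5.79e-12). PPP3CB, a catalytic subunit of calcineurin, the phosphatase that frees TFEB, fell from 71.1, 65.6 and 67.3 CPM to 27.6, 31.9 and 27.8 CPM (edgeR adjusted p = 4.18e-12). Calcineurin genes did not fall together: PPP3CA stood at 71.1 ± 1.62 and 75.5 ± 3.17 CPM and did not pass, and PPP3R1 rose 1.18-fold (edgeR adjusted p = 0.153 and 0.00220). LAMTOR2, of the Ragulator scaffold, fell from 32.7 ± 3.02 to 16.6 ± 0.248 CPM (edgeR adjusted p = 5.31e-10). LAMTOR1 and LAMTOR4 also fell (log2 -0.71 and -0.55), while LAMTOR3 and LAMTOR5 rose (log2 0.39 and 0.36). XPO1, which exports TFEB from the nucleus, rose 1.24-fold, and YWHAB, a 14-3-3 protein, did not pass (edgeR adjusted p = 2.24e-05 and 0.312). RRAGD, a Rag GTPase and a known TFEB target, is named after its values were seen, as the largest fold change of the list. It rose from 13, 10 and 23 counts to 125, 91 and 122 counts (log2 2.72 ± 0.25).

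Genes of lysosome positioning and fusion were the only further list with more falls than rises, 13 against 8 of 26 (median -0.16). The share called was 80.8%, against 56% of all genes and 64.9% of protein-coding genes tested. VPS39 and VPS16, subunits of the HOPS tethering complex, fell from 80.2 ± 0.329 to 42.1 ± 2.30 CPM and from 61.6 ± 0.885 to 32.5 ± 2.30 CPM (edgeR adjusted p = 1.79e-11 and 7.03e-11). VAC14, a scaffold of the lipid kinase PIKFYVE, fell by 0.20 ± 0.0464, and PLEKHM2, an adaptor for kinesin, did not pass (edgeR adjusted p = 9.73e-04 and 0.170).

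**Figure D4:**
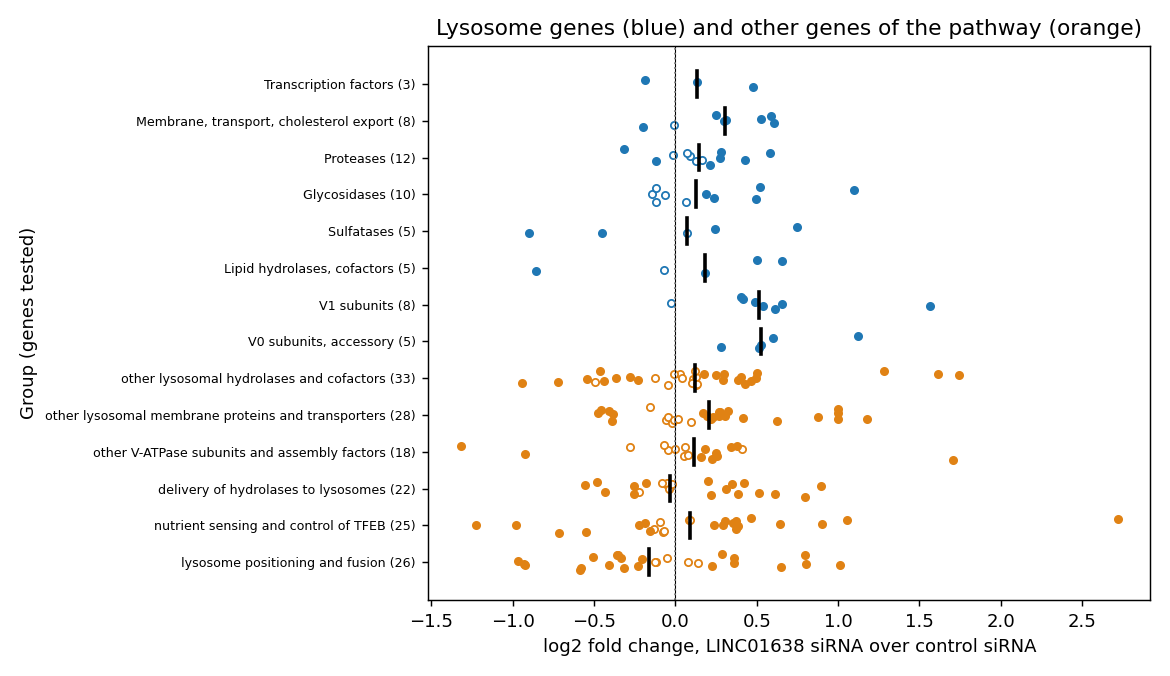
Log2 fold change with LINC01638 siRNA over control siRNA (horizontal axis) for the 56 lysosome genes by role (blue) and for the genes tested of the 6 further lists (orange), with vertical bars at each median and open circles for genes that did not pass the test. The V1 and V0 groups of the 56 genes have the highest medians, 0.51 and 0.53. The further ATPase list has 0.12, and positioning and fusion has the lowest, -0.16.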

How the data were processed

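The submitters' processing notes name the tools STAR (2.7.10b) and R (4.2.1) and the genome GRCh38 (hg38). The authors deposited whole-number counts per gene, 1 table per library, unnormalized, for 62696 genes. Their annotation release is not given in the sources used here. Counts on the reverse strand were taken, to match the directional kit, and 4 entries that name no gene were left out of library sizes. Reads over several genes made up 7.49% ± 0.243 of mapped reads with control siRNA and 7.17% ± 0.163 with LINC01638 siRNA. Symbols and exon lengths came from the gene table and GENCODE 29.

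Groups and replicate letters came from the sample titles and treatment labels. edgeR's filterByExpr (minimum count 10, total 15) kept 18569 genes. The comparison used TMM scaling and the robust quasi-likelihood F test with group as the only term and Benjamini-Hochberg adjustment over all genes tested. Its p-values reflect only how far these libraries vary, which could be technical variation. Self-tests were run on simulated data. The tests ran in R 4.3.3 with DESeq2 1.42.0, limma 3.58.1 and edgeR 4.0.16, and tables and plots in Python 3.11.15 with matplotlib 3.10.9, pandas 2.3.3 and numpy 2.4.6.

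The 56 genes and the further lists were chosen with earlier results of these data known. Values in every library are given for the largest rise, the largest fall and the most abundant gene of each role, and from each further list the 2 genes with the highest mean CPM and up to 3 called genes with the lowest p are named. Some related genes of the same lists are named beside them. Some genes that this rule picks are not reported here. Promoters are from RefSeq. Alternatives were other scalings, filters, tests and columns, a replicate block and leaving out each library.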

Additional observations from a re-analysis of the deposited data

How the results depend on the processing

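Of the 42 calls among the 56 genes, 37 were kept in all 15 alternative settings that tested the gene (33 higher and 4 lower: CTSB, ARSA, GALNS and LIPA), and none changed sign. TFEB, TFE3, LAMP2, CTSC and PSAP lost their call in at least 1 setting. Of the 14 genes without a call, CTSL gained one in 7 settings, CTSA in 5, GAA in 2, and CTSF, GLB1 and SGSH in 1 each. With library totals alone, 39 of the 56 rose, 4 fell and the median log2 fold change was 0.37. With protein-coding genes only, 4 fell. Leaving out 1 library at a time gave 34 to 38 genes higher, 5 to 7 lower and a median of 0.22 to 0.31. With a CPM filter on all genes ATP6V0C was not tested. Depth limits ATP6V0C, whose lowest library held 17 counts, and no other of the 56 had fewer than 133.

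The replicate block, with the letter as a term, gave 36 of the 56 higher and 5 lower. Deviations of control and treated libraries with the same letter had correlations of -0.12, -0.05 and -0.01, so no shared deviation by letter was seen. These values cannot decide whether libraries with the same letter shared a culture, since sharing need not leave a correlation. The labels do not say either. Over all genes the block gave 4676 higher and 5286 lower.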
